A study of Mus musculus with 2 samples.

Results

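The Rab genes encode the largest branch of the Ras superfamily of small GTPases, and their messenger RNA was compared here between CD4+ helper and CD8+ cytotoxic T cells of the mouse. Members were the genes whose current mouse symbol is Rab followed by a number and at most 1 letter, named through the transcript accession of the array probe. The rule used names alone and no measured value. It found 53 members, measured by 89 probes, among 17176 named genes, and 8 further symbols that start in the same way, such as Rab11fip1, name binding partners or regulators and were not counted as members. No probe was matched to Rab4a, Rab7, Rab26, Rab36 or Rab44, which are not analysed here.

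Both groups were wild-type C57B6 splenocytes that had been sorted, with no treatment named other than the sort. The helper group was 1 array of CD4+ cells and the cytotoxic group 1 array of CD8+ cells, each hybridised with Cy3-labelled total RNA on a one-colour Agilent mouse array. They are called the helper array and the cytotoxic array. Nothing read here states how old the mice were, how many were pooled per array or which surface stain the sort used. With 1 array per group there was no replicate spread and no test, and a difference could belong to these preparations as well as to the cell types. The sorted populations are bulk samples, in which a change in the share of cells that carry a transcript cannot be told apart from a change in its amount per cell.

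A Rab protein carries GTP when active and GDP when inactive. Exchange factors load GTP, GTPase activating proteins end the active state, and prenyl groups added after translation anchor the protein in a membrane. Each Rab marks particular membranes, where it recruits effectors that move, tether or fuse vesicles. In T cells this traffic recycles the antigen receptor to the immune synapse, carries cytokines outward, and in cytotoxic cells brings lytic granules, which are modified lysosomes, to the target cell.

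Levels are given as the processed signal, the scanner software's brightness of a spot after background subtraction. Since the arrays were not scaled to each other, differences were taken after each signal had been divided by its array's 75th percentile, which was 508 on the helper array and 449.9 on the cytotoxic array. A difference is the log2 scaled level of the cytotoxic array minus that of the helper array, so that 0 means equal levels and a positive value a higher level in the CD8+ cells. A gene counted as apart when it reached 2-fold. For scale, repeated spots of 153 probes varied in this difference with an SD of 0.16, and the several probes of 3972 genes varied with an SD of 0.24. The scanner software's own error estimate, carried through to the difference, is given with ±, and it holds no spread between preparations. For bright probes it was nearly the same whatever the gene, such as 0.204 for Rab35 and 0.205 for Rab7b. It is therefore not a precision measured for each gene. The cell labels were checked on Cd4, with signals of 307 and 67.1 on the 2 arrays, helper first, and on Cd8a, with 535 and 49982. All 8 general T cell markers were well above background on both arrays.

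Of the 53 Rab genes, 46 were well above background on both arrays, 1 (Rab9b) on the helper array alone, and 6 on neither. Of the 17176 named genes, 11957 were so on both arrays, 919 on the helper array alone and 4118 on neither. Most of the 46 differed little. Only Rab7b reached 2-fold in favour of the cytotoxic array, and only Rab17 in favour of the helper array. That is 1 gene in each direction, where 1.94% of the 11957 named genes above background on both arrays were at least 2-fold higher in the cytotoxic array and 3.83% in the helper array. The remaining 44 members (95.7%) lay within 2-fold, as did 94.2% of all genes, so the share of Rab genes apart was near the background of 5.77%. Within 1.5-fold lay 43 members (93.5%), against 86.0% of all genes. The third member beyond 1.5-fold was Rab3a, higher in the helper array, where 8.54% of all genes were; 5.5% were beyond 1.5-fold in the cytotoxic array.

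The median difference of the 46 Rab genes was -0.08, with quartiles of -0.24 and 0.11, and that of all genes was 0.02. Scaling the arrays to their medians raised the median of all genes by 0.14 and turned the Rab median to 0.06, so the sign of the family's median rests on the scaling. Relative to all genes the Rab median was lower by 0.11. Median scaling shifts every gene alike, so this gap could not change with it. Lower in the cytotoxic array by any amount were 27 of 46 members (58.7%), beside 46.3% of all genes, and with median scaling 15 members (32.6%) beside 28.5%. Set against the SD of 0.24 between probes of a gene, 30 members lay within it. Lower in the cytotoxic array by more were 12 (26.1%, beside 21.0% of all genes), and higher by more 4 (8.7%, beside 21.5%). With median scaling these were 7 lower (15.2%, beside 14.2%) and 12 higher (26.1%, beside 39.1%). The side on which more members lay turned with the scaling, while the share higher by more stayed below that of all genes.

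**Figure D1:**
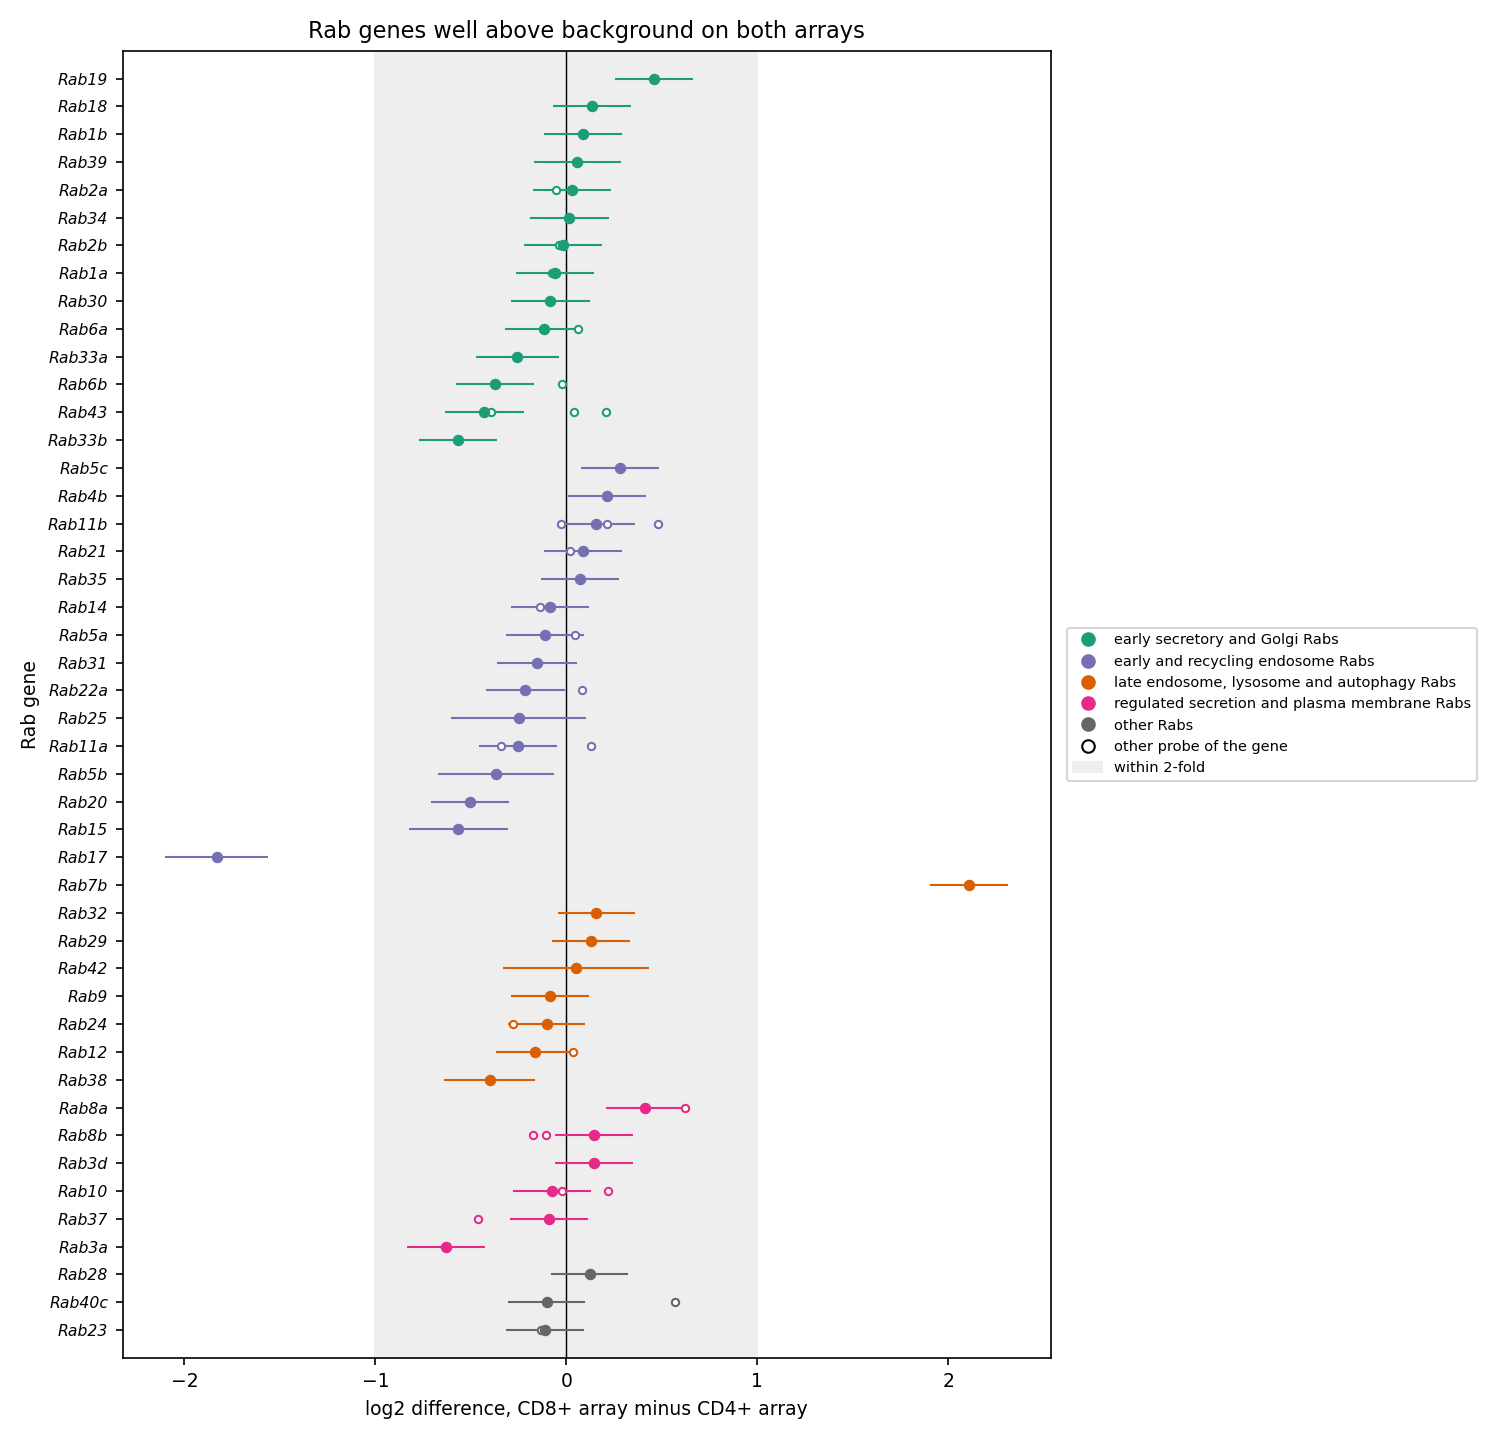
Log2 difference (cytotoxic minus helper array, horizontal axis) of each of the 46 Rab genes above background on both arrays, grouped by colour into roles; filled points are the probe used, bars the scanner software's error estimate, open points other probes of the gene above background on both arrays, and the shading marks differences within 2-fold. Rab7b at 2.11 and Rab17 at -1.83 stand outside the shading and the other 44 genes inside it.

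Rab7b, a late endosomal Rab that directs traffic from endosomes to the trans-Golgi network, had a signal of 269 on the helper array and 1028 on the cytotoxic array. It was therefore 4.32-fold higher in the cytotoxic array (log2 difference 2.11 ± 0.20), well beyond the SD of 0.24 between probes of a gene. It was measured by 1 probe, so no other probe of the gene checks this value. The other measured Rab genes of late endosomes, lysosomes and autophagy showed no such gap. Rab29, at a locus near that of Rab7b and known as a partner of the kinase Lrrk2, had signals of 1970.0 and 1907 (difference 0.13). Rab32, which with Rab38 serves the biogenesis of lysosome-related organelles, had 887 and 876 (0.16).

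Rab38 itself lay the other way, with signals of 67.1 and 44.9 (-0.40 ± 0.24). Rab38 was dim, and its difference was -0.12 with normexp and -0.15 in the series values. Under the same settings Rab32 turned to -0.04 and -0.045, the same side as Rab38. Rab12 (1337 and 1054, difference -0.17) and Rab24 (6177 and 5087, difference -0.10), a Rab linked to autophagy, were level within the spread between probes. So was Rab9, which returns mannose 6-phosphate receptors from late endosomes to the Golgi, at -0.09. Rab42 stood at 0.05. The median of the 8 members of this group above background on both arrays was -0.02, and Rab7b alone among them was beyond 2-fold. Rab9b, the relative of Rab9, had a signal of 15.2 on the helper array, where it was well above background, and 9.74 on the cytotoxic array, where it was not well above background, and no fold can be given.

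**Figure D2:**
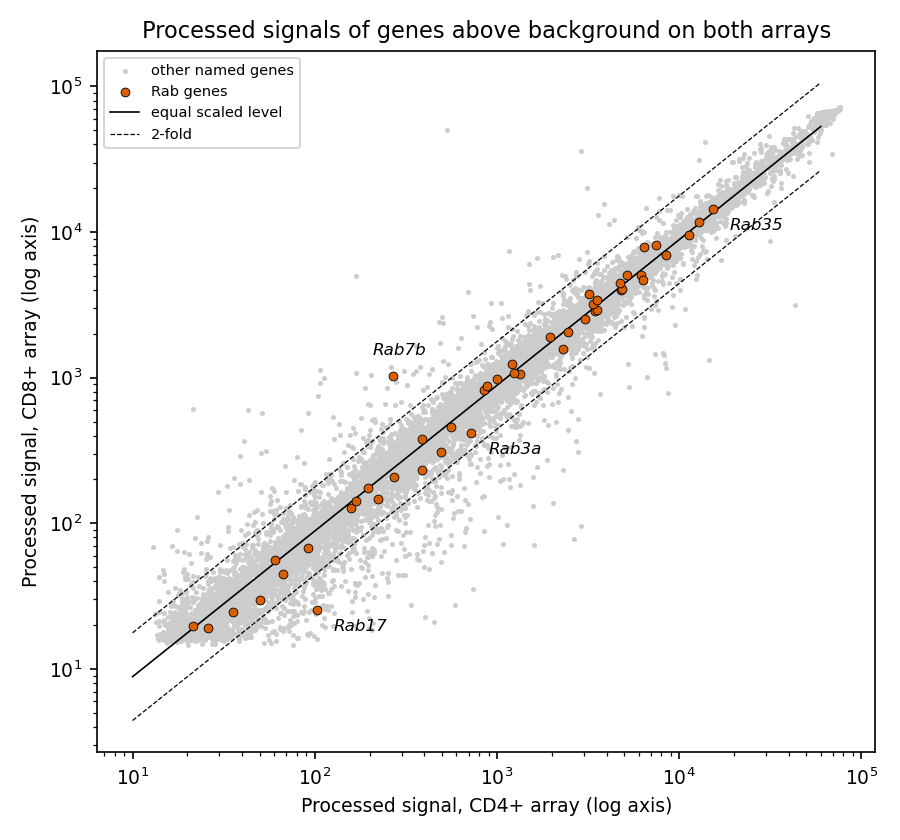
Processed signals of the named genes above background on both arrays, helper array on the horizontal and cytotoxic array on the vertical axis, both log axes; grey points are other genes, orange points the 46 Rab genes, the solid line marks equal scaled levels and the dashed lines 2-fold. Rab7b (269 and 1028) lies above the upper dashed line and Rab17 (102.5 and 25.5) below the lower one.

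Rab17, known from polarised epithelium, where it acts in recycling and transcytosis, had a signal of 102.5 on the helper array and 25.5 on the cytotoxic array. It was 3.56-fold higher in the helper array (difference -1.83 ± 0.27), again by 1 probe. The lower value lies close to the background, and the size depends on how that is removed: the gene was 1.58-fold higher after normexp background correction and 1.96-fold higher in the authors' series values, which hold the median pixel brightness with no background subtracted. Normexp as run here adds an offset of 50, and that offset, like the kept background, draws the ratio of a dim gene toward 1. Under either processing no Rab gene was 2-fold higher in the helper array. With probes of a mean signal of at least 200 alone, which kept 34 members, Rab7b was the only one beyond 2-fold, beside 4.08% of the genes measured by such probes.

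Of the genes beyond 2-fold, Rab17 has an entry in the RefSeq promoter table (build GRCm38.p6), and it is shown with that of Rab6a to set a window poor in CG dinucleotides beside the one with the highest CG ratio among the members measured on both arrays. Each window runs from 250 bases before to 50 after the transcript start, on the gene's strand, and capitals mark every CG. Rab17 lies on the minus strand at chr1:90967618-90967917 and Rab6a on the plus strand at chr7:100607336-100607635.
Rab17: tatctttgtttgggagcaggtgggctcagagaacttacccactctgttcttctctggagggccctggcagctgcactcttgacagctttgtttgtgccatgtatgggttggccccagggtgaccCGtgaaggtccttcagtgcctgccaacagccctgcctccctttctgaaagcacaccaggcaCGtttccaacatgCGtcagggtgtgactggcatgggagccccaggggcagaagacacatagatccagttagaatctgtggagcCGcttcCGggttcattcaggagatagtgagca
Rab6a: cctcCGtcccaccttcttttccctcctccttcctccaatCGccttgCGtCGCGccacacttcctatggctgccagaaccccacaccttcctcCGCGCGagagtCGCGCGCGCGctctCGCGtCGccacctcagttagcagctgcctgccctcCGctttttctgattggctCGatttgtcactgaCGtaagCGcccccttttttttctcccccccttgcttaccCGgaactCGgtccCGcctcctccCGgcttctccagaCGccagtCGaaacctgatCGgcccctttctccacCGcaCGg
The Rab17 window holds 5 CG dinucleotides, a ratio of observed to expected CG of 0.22, and the Rab6a window holds 29, a ratio of 1.18. Rab6a, whose product drives retrograde traffic within the Golgi, had signals of 8529.7 and 6966 on the 2 arrays, helper first (difference -0.12). Over the 56 windows of the 46 members in the table the median was 20 CG dinucleotides, against 13 over the windows of all protein-coding genes. The table holds no window for 7 members, Rab7b among them.

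The GC box, spelled CCGCCC and searched on both strands, was present in 38 of the 56 Rab windows (67.9%), in 46.2% of the protein-coding windows and in 35.7% of all windows of this length. The ETS core CCGGAAG was in 8.93% of the Rab windows and 11.6% of the protein-coding ones, and the Rab17 window holds it. The RUNX core TGTGGT was in 16.1% and 14.97%, the TCF/LEF core CTTTGA in 10.7% and 14.4%, the CRE core TGACGT in 12.5% and 8.49%, and the TATA box TATAAA in 5.36% and 12.6%. No motif of the 6 contains another, and the Rab6a window holds the CRE core alone of them. A match describes letters in the window alone.

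The Rab genes of the early secretory pathway and the Golgi were all within 1.5-fold, with a median of -0.04 over the 14 members above background on both arrays. Rab1a and Rab1b, which act between the endoplasmic reticulum and the Golgi, differed by -0.06 and 0.09, and their second probes gave -0.07 and 0.09. Rab2a and Rab2b, which act at the same interface, differed by 0.03 and -0.02. At the upper end Rab19 had signals of 6457 and 7868, a difference of 0.46 ± 0.20, and positive values from 0.41 to 0.60 under the 11 alternatives. Rab18, a Rab of the endoplasmic reticulum and lipid droplets, had 3526 and 3429.7 (0.14).

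At the lower end Rab33b, a Golgi Rab that also acts in autophagosome formation, had signals of 390.1 and 233, a difference of -0.57 ± 0.21. Its relative Rab33a, with signals of 91.5 and 67.8, lay in the same direction at -0.26. Rab43 had 224 and 147 by its brightest probe (-0.43), but its other 3 probes gave -0.39, 0.04 and 0.21, and the mean of all 4 was -0.14. Rab6b, the relative of Rab6a, had signals of 2299 and 1573 (-0.37) and -0.02 by its other probe. Rab34 (0.02), Rab39 (0.06) and Rab30 (-0.08) lay between these. Rab39b was not well above background on either array.

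Among the Rab genes of early and recycling endosomes all 15 were above background on both arrays, and 10 of them (66.7%, beside 46.3% of all genes) were lower in the cytotoxic array, with a median of -0.15. With median scaling 8 were lower (53.3%, beside 28.5%) and the median was -0.01. Apart from Rab17, the lowest were Rab15, with signals of 50.1 and 30.0 (-0.57 ± 0.26), and Rab20, a Rab of maturing phagosomes, with 497 and 310.2 (-0.50 ± 0.20). Rab15 was dim and its difference was 0.02 after normexp. Rab20 kept between -0.61 and -0.36 in the alternatives. The highest were Rab5c with 7521 and 8090.1 (0.28), Rab4b with 1213 and 1243 (0.21), a Rab of fast recycling, and Rab11b with 5172 and 5098 (0.16), which serves the slower recycling endosome.

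The Rab5 genes control the fusion of early endosomes, and they did not share 1 direction. Rab5a was measured by a probe with 10 spots. Its signal was 3567 ± 94.9 (SD over spots) on the helper array and 2920.1 ± 82.7 on the cytotoxic array. The difference was -0.11, with an SD of 0.04 over the spots. A second probe of Rab5a, with signals of 704 and 642, gave 0.04, so the sign for Rab5a differed between its probes. Rab5b differed by -0.37 ± 0.30 at a dim 35.7 and 24.5, while Rab5c was higher in the cytotoxic array. Rab35, which returns the antigen receptor to the synapse, had signals of 15429 and 14339 (0.07). Rab14 (-0.09), Rab21 (0.09), which traffics integrins, Rab31 (-0.15), Rab22a (-0.21), Rab25 (-0.25) and Rab11a (-0.26) were all within 1.5-fold.

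Rab genes of regulated secretion and plasma membrane delivery were split between detected and undetected members. Not well above background on either array were 4 of the 10, beside 6 of all 53 Rab genes and 4118 of all 17176 named genes. The 4 were Rab27b and Rab3b, both of secretory granules, Rab3c of synaptic vesicles, and Rab13 of cell junctions. Their signals were between 3.31 and 12.7 on the 2 arrays. The 6 detected ones had a median of 0.04. Rab3a, best known from the synaptic vesicle, had signals of 725 and 414 and was 1.55-fold higher in the helper array (-0.63 ± 0.20, by 1 probe), and from -0.68 to -0.49 in the alternatives. Its relative Rab3d, a Rab of secretory granules in exocrine cells, was level at 390.0 and 382 (0.15, and 0.14 by its other probe).

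Rab8a, which carries cargo from the Golgi to the plasma membrane, was the highest of this group, with signals of 3205 and 3769.9 (0.41 ± 0.20). Its other probe, at 1208 and 1647, gave 0.62. Rab8b had 1002 and 981 (0.15), but its other 2 probes gave -0.17 and -0.11. Rab37, a Rab of secretory granules, had 2458 and 2045 (-0.09) by one probe and -0.46 by the other, and Rab10, which delivers glucose transporters, had 4789.5 and 4029 (-0.07). Of the Rab genes outside these groups, Rab23, a regulator of Hedgehog signalling, stood at 563 and 461 (-0.11), Rab28 at 849 and 817 (0.12), and Rab40c, part of a ubiquitin ligase, at 3469 and 2857 (-0.10). The second, dim probe of Rab40c gave 0.57, and Rab40b was not well above background.

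Several Rabs exist as close relatives under 1 number, and 8 such subfamilies had at least 2 members measured on both arrays. In 5 of them the members lay on opposite sides of 0, namely Rab1, Rab2, Rab3, Rab5 and Rab11. With median scaling these were 4, namely Rab3, Rab5, Rab6 and Rab11. The gap between the highest and the lowest member was largest for Rab3a and Rab3d at 0.78, followed by 0.65 for Rab5b and Rab5c and 0.41 for Rab11a and Rab11b. It was below the SD between probes of a gene for the Rab1 pair (0.15) and the Rab2 pair (0.05). The Rab11 gap was smaller than the range over the probes of Rab11a alone, 0.47 (from -0.34 to 0.13). It was also smaller than that of Rab11b alone, 0.51 (from -0.03 to 0.48). Probes of 1 gene differed as well. Of the 22 members with several probes above background on both arrays, all probes had the same sign in 11 and lay within the SD between probes of a gene in 13. The same counts over all genes with several probes are not given here, so whether these are usual is not known. The widest range was the 0.67 of Rab40c. Since related Rabs share sequence, whether a probe reads a relative too was not tested.

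Genes that act on Rab proteins were described from lists. The prenylation and recycling list includes the geranylgeranyl transferase that attaches the prenyl groups and the escort proteins that present Rabs to it. None of its 7 members above background on both arrays reached 2-fold, and the median was 0.01. The largest differences were those of Arl6ip5, with signals of 16981 and 20847 (0.47), and of Rabggtb, the beta subunit of the transferase, with 3834 and 4169 (0.30 by each of its 2 probes).

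Of the 39 exchange factors above background on both arrays, 1 was at least 2-fold apart (5.77% of all genes were) and 11 (28.2%, beside 46.3% of all genes) were lower in the cytotoxic array, with a median of 0.07. With median scaling 7 (17.9%, beside 28.5%) were lower. The exception was Rin2, an exchange factor of Rab5, with signals of 189 and 54.6, 3.06-fold higher in the helper array (-1.61 ± 0.22) and 1.77-fold higher after normexp. The GTPase activating proteins had a median of 0.09 over 33 members. Tbc1d4, an Akt substrate that acts on Rab10 in glucose transporter traffic, had signals of 205 and 43.7 and was 4.16-fold higher in the helper array (-2.06 ± 0.23). A second probe gave -2.09, the other was not well above background on the cytotoxic array, and with normexp the gene was 2.32-fold higher. Grtp1, above background on the helper array alone with signals of 34.7 and 7.63, was at least 2.09-fold higher there, a bound that fell below 2-fold after normexp, in the series values and after median scaling.

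Among Rab effectors, 34 were above background on both arrays, with a median of -0.03, and none was 2-fold higher in the cytotoxic array, although 1 was with median scaling. Sytl2, a tether of secretory vesicles at the plasma membrane, had signals of 296 and 128 and was 2.05-fold higher in the helper array. Myo5a, an actin motor for vesicles, had 983 and 433 and was 2.01-fold higher there, and its second probe gave -0.96. Both stood just past 2-fold and fell short of it under normexp (-0.76 and -0.88), median scaling and the series values. Across the 4 lists, 4 of 113 genes above background on both arrays were at least 2-fold higher in the helper array, where 3.83% of all genes were, and 0 in the cytotoxic array, where 1.94% were.

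**Figure D3:**
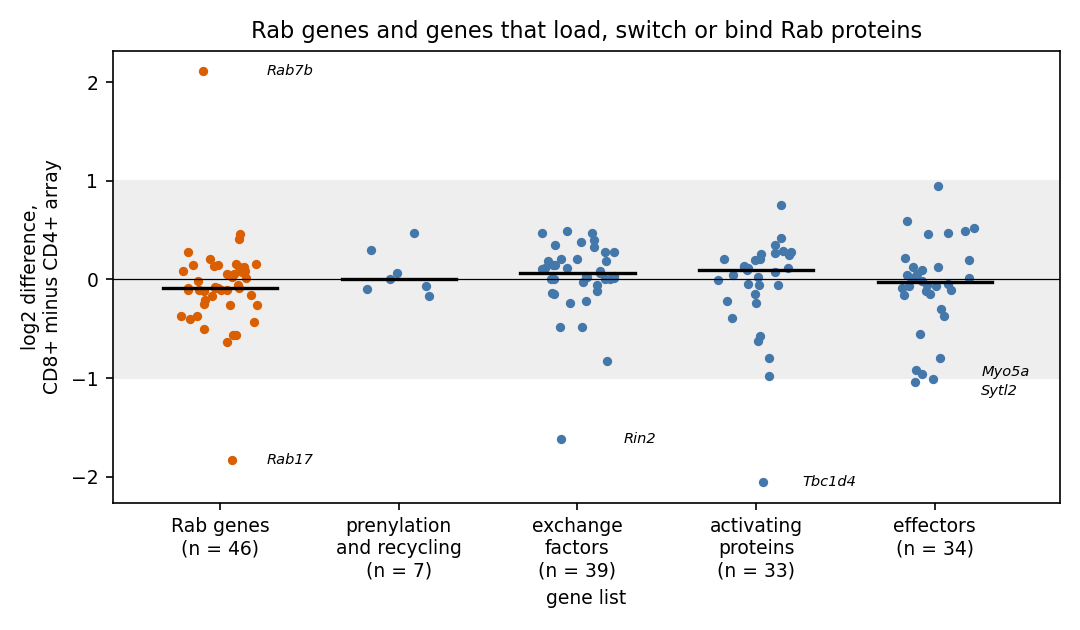
Log2 difference (cytotoxic minus helper array, vertical axis) of each gene above background on both arrays, for the Rab genes and for 4 lists of genes that load, switch or bind Rab proteins; black bars are medians, the shading marks differences within 2-fold, and the horizontal scatter of points is random. Rin2 (-1.61), Tbc1d4 (-2.06), Sytl2 (-1.04) and Myo5a (-1.01) lie below the shading, and Rab7b at 2.11 is the only point above it.

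Markers of other cell types differed between the arrays beside Rab7b and Rab17. In the direction of Rab7b, 8 of 10 B cell markers were higher in the cytotoxic array (median 0.52), with a summed signal of 32.7 and 42.7 times the 75th percentile on the 2 arrays, helper first. In the direction of Rab17, 6 of 7 dendritic cell markers were lower in the cytotoxic array (median -0.99, sums of 48.4 and 38.0), as were 6 of 6 plasma cell markers (-0.63, sums of 7.77 and 5.05) and 6 of 8 markers of monocytes, macrophages and granulocytes (-0.25, sums of 31.0 and 25.4). Of 4 natural killer cell markers 3 were lower (median -1.65), although the sum was 57.3 and 59.6. The largest part of that sum was Il2rb, the only one that was higher, with signals of 18478 and 22712. The largest part of the dendritic cell sums was Bst2, with signals of 20694 and 15528. Xcr1 was the only dendritic cell marker that was higher in the cytotoxic array, with signals of 134 and 151 (0.35). Zbtb46 and Clec9a, also on that list, had no matched probe. Of 6 platelet markers 4 were higher (median 0.49), while the sum was 17.9 and 2.79, with Itgb3 at signals of 8745 and 784. Red cell markers had a median of -0.12 and sums of 5.43 and 4.45. Not well above background were Klre1 on both arrays, Tnfrsf17 on the cytotoxic array and Itga2b on the helper array. The part of these cells in the differences of Rab7b, Rab17 and the regulators was not tested.

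**Figure D4:**
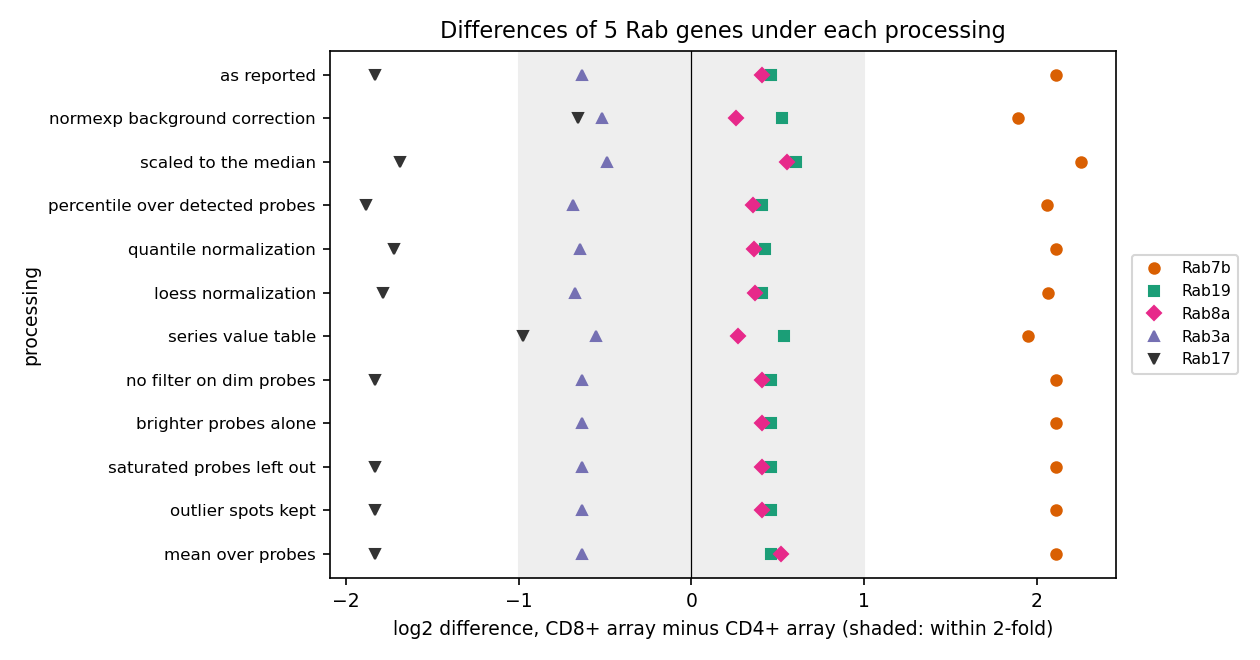
Log2 differences (cytotoxic minus helper array, horizontal axis) of 5 Rab genes as reported and under 11 other ways of processing (vertical axis), with differences within 2-fold shaded. Rab7b stays between 1.89 and 2.25, whereas Rab17 moves from -1.83 to -0.66 with normexp and to -0.97 with the series values, and has no point among brighter probes alone.

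The higher level of Rab7b in the cytotoxic array was at least 3.7-fold in every one of the 11 alternatives. Rab3a, Rab8a and Rab19 also kept their sides of 0 throughout, none of them reaching 2-fold.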

How the data were processed

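One-colour Cy3 arrays of sorted splenic T cells were used, 1 per group. The deposited scanner files hold each spot's intensity. Per the file headers they come from Feature Extraction 10.1.1.1, whereas version 9.1 stands in the submitters' processing notes. The deposited intensity used here is background-subtracted, linear and unscaled between arrays. The series value table deposited by the authors holds the median spot intensity, equal with a tolerance of 0 at 45018 of 45018 spots on each array.

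Control spots and outlier spots (99 and 92) were left out, and log2 signals were set relative to the 75th percentile of the non-control spots of their array. Accessions were named through a RefSeq table (GRCm38.p6), since the headers name another build, and 60.3% of 41170 probes matched 1 symbol. A gene took its brightest probe, with preference for probes above background on both arrays. Where only 1 array was above background, a bound was computed against the lowest level above background on the other. No member probe was saturated.

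Members, gene lists and naming rule were chosen with earlier results of these data known. Named were members beyond 2-fold, the 3 highest and 3 lowest per role, and, per regulator list, up to 6 genes beyond 2-fold per direction or otherwise the 2 largest; others are named to account for every member. There are no p-values, as each group is 1 array, and this number sets the limit of precision. Normexp (offset 50) was run on the median signal, since no mean signal column is used here. The computation was tested on simulated data. Further, 1 gene of the family is not reported here. Python 3.11.15, pandas 2.3.3, numpy 2.4.6, matplotlib 3.10.9, R 4.3.3 and limma 3.58.1 were used.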

Additional observations from a re-analysis of the deposited data

How the results depend on the processing

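No paired analysis was possible because each group holds 1 array. The count of 1 Rab gene at least 2-fold higher in the cytotoxic array (Rab7b) was 1 in all 13 alternatives. The filters on dim, saturated or outlier spots and the mean over probes could not change Rab7b, measured by 1 bright probe. The count of 1 in the helper array (Rab17) became 0 with normexp, with the series value table, with brighter probes alone and at a 4-fold threshold, and 2 at a 1.5-fold threshold. For the last 2 and for brighter probes, the threshold or filter itself gives the change. Normexp as run here adds an offset of 50, and the series values keep the background. Either setting draws the ratio of a dim gene toward 1 by construction. How much of the change in Rab17 came from this was not tested. The median of the Rab genes ranged from -0.14 to 0.06 over the 11 alternatives that recompute values, where median scaling gave the positive value, and from -0.12 to -0.07 relative to the median of all genes. Of the 27 Rab genes named by rule, 11 had a difference of either sign over these alternatives, all of them within 2-fold, namely Rab1b, Rab8b, Rab10, Rab11b, Rab15, Rab18, Rab23, Rab24, Rab32, Rab37 and Rab40c. Rab7b and Rab17 kept their sign. Signal over background limits the dim members, Rab17 and Rab15 among them, and 12 of the 46 had no probe with a mean signal of 200.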

Other observations

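Both genes beyond 2-fold lie on chromosome 1, and the protein-coding genes around them in the RefSeq order were measured too. Of the 5 genes on either side of Rab7b, 7 of 10 had a difference, from -0.28 (Avpr1b, a bound, above background on the helper array alone) to 0.25, and none was near that of Rab7b at 2.11. Rab29, 4 genes away, stood at 0.13 and Srgap2, a regulator of the actin cytoskeleton, at 0.01. Around Rab17, 6 of 10 had a difference, from -0.15 to 0.89. The highest was Ackr3, a scavenging chemokine receptor, with signals of 102.6 and 168 on the helper and cytotoxic arrays, opposite in direction to Rab17 at -1.83. The next gene, Lrrfip1, had signals of 8988 and 7595 (difference -0.07).

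Other genes of the regulator lists had sizeable differences within 2-fold and are named because of their values. Appl2, an effector of Rab5 on early endosomes, had signals of 723 and 1234 (0.95), and Eea1, the tether of early endosomes, 169.5 and 77.2 (-0.96). Micall1, an effector of recycling endosomes, had 10182 and 4755 (-0.92). Tbc1d2, an activating protein of Rab7, had 322 and 144 (-0.98). Each of these values comes from 1 probe, although Eea1 has 5 probes and Micall1 has 2. Other probes and other ways of processing are not given for these genes.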
